A study of Mus musculus with 20 samples.

Results

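Large H3K27me3 domains are single peaks of trimethylated lysine 27 of histone H3 that span 30 kb or more. They were chosen by measured width alone, as every autosomal peak of the deposited H3K27me3 list whose end minus start was 30000 bp or more. This gave 1171 domains among 97965 autosomal H3K27me3 peaks, 1.20% of them, and the whole list held 114660 peaks. The domains summed to 58.3 Mb, which was 17.3% of the autosomal sequence in H3K27me3 peaks.

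The peaks come from chromatin immunoprecipitation with sequencing (ChIP-seq) of Comma-Dβ cells, an established line of mouse mammary epithelium, all at passage 28, with no treatment given in the labels. The 20 samples formed 5 groups of 4 biological replicates, precipitated with antibodies to HEB (the E protein encoded by Tcf12), H3K4me3, H3K27ac or H3K27me3, or kept as input chromatin without antibody. The medium of all groups was DMEM/F12 with serum, HEPES, insulin and mouse epidermal growth factor added. The files hold 1 peak list per antibody in mm10 coordinates, with replicates combined. There is therefore no spread between replicates, and the read depth is unknown. The cells are 1 line at 1 passage, and in bulk chromatin marks on the same allele, on different alleles and in different cells cannot be told apart. Counts, shares and medians below describe positions in these lists, and intervals stand for counting error alone.

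H3K27me3 is placed by Polycomb repressive complex 2 through its methyltransferases Ezh1 and Ezh2, and it marks genes held silent. In vertebrate cells the broadest stretches are known to lie over homeobox and other developmental regulator genes, where the mark can spread from CpG-rich start sites. H3K4me3 marks promoters that are active or poised, and H3K27ac, on the same lysine as H3K27me3, marks active promoters and enhancers. A promoter with both H3K4me3 and H3K27me3 is called bivalent.

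Reference sequences show the range of promoters that these domains covered. Each is the 250 bases before a RefSeq start on GRCm38.p6, read 5′ to 3′ along the gene with every CG in capitals. Both starts with the most CpGs and both with the fewest are given, among the named transcription factor genes that start inside a domain. The Barx1 stretch lies at chr13:48662786-48663035 on the + strand and the Barhl2 stretch at chr5:106458167-106458416 on the - strand. The Hoxa9 stretch lies at chr6:52227371-52227620 on the - strand and the Hoxd4 stretch at chr2:74721728-74721977 on the + strand.
Barx1: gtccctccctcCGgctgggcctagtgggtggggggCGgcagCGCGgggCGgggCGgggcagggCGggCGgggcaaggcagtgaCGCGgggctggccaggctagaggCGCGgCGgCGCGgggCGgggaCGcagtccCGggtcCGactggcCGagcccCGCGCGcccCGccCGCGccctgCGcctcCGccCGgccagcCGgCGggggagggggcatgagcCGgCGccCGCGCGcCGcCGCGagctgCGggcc
Barhl2: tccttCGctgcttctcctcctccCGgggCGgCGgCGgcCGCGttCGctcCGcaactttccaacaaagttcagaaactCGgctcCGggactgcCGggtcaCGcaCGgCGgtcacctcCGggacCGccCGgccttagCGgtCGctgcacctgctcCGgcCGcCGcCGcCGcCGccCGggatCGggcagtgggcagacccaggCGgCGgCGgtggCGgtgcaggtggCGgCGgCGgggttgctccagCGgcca
Hoxa9: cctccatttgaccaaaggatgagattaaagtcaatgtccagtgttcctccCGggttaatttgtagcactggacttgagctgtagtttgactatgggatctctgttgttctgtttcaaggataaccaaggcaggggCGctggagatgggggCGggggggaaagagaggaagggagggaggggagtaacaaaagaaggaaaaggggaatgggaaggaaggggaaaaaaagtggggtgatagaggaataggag
Hoxd4: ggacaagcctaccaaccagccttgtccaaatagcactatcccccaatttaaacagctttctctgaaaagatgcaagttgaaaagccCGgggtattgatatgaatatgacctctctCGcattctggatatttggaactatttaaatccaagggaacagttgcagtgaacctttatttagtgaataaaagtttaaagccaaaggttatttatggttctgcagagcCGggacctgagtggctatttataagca
Barx1, a homeobox gene of tooth and stomach development, had 40 CpGs in these bases and a domain of 47.9 kb. Barhl2, a homeobox gene of retina and spinal cord, had 36 and a domain of 109 kb. Hoxa9 and Hoxd4, which set position along the body axis, had 3 each, in domains of 138 and 84.7 kb. None of these 4 windows overlapped an H3K4me3 or H3K27ac peak. Each window lies just outside the annotated span of its gene, so any start further inside the gene is not shown. An H3K4me3 peak of 2.15 kb lay within the Hoxa9 gene. The motif CG reads the same on both strands. It occurred at least once in 93.7% of 20085 reference start windows of autosomal coding genes, with a median of 10. The domains therefore held starts of very different CpG content. No group value is given, because reference starts covered too few of the covered genes.

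The domains also covered microRNA genes, some of them embedded in regulator clusters. The mature forms of 5 of them, chosen after the values were seen because they sit beside Hox genes or cardiac myosin, are printed with the seed (bases 2 to 8) in capitals.
mmu-miR-196a-5p: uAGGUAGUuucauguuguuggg
mmu-miR-196b-5p: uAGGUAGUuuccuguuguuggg
mmu-miR-10b-5p: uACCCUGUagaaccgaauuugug
mmu-miR-208a-3p: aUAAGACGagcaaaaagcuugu
mmu-miR-208b-3p: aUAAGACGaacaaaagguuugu
miR-196a and miR-196b, which are known to target Hox transcripts, share the seed AGGUAGU. Their 3 genes lay in 3 domains, with Mir196a-1 in the Hoxb6 to Hoxb9 domain, Mir196a-2 in the HoxC domain and Mir196b in the HoxA domain. Mir10b lay in the domain over Hoxd3, Hoxd4 and Hoxd1. miR-208a and miR-208b, the microRNAs carried in cardiac myosin genes, share the seed UAAGACG. Both genes lay in a domain of 54.5 kb around Myh7. In all, 31 of 1136 autosomal microRNA genes (2.73%) lay wholly inside 25 domains, and 30 of the 31 had an entry in the reference sequence table. The domains cover 2.43% of the autosomal span, and 1.83% of coding genes lay wholly inside. The microRNA share was close to these levels.

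The domains ranged in width up to 217 kb, and their values are given as a description because width chose them. The median was 41.8 kb and the interquartile range was 34.7 to 55.2 kb. There were 369 domains of 50 kb or more, 56 of 100 kb or more and 4 of 200 kb or more. The authors' fold enrichment per peak ran from 1.84 to 5.23 with a median of 2.51, beside 2.15 in the 5974 autosomal H3K27me3 peaks of 10 to 30 kb and 1.73 in the 90820 shorter ones. A −log10 q of 5 or more was reached by 93.8% of the domains, 59.3% of the peaks of 10 to 30 kb and 6.44% of the shorter ones. Across domains, width and fold had a Spearman correlation of 0.25 (n = 1171 domains that share 1 library set). At the threshold, the narrowest domains were 30, 30.008 and 30.025 kb wide with folds of 2.50, 2.29 and 3.11. The widest peaks left out were 29.99, 29.987 and 29.985 kb wide with folds of 3.17, 1.96 and 2.33.

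The 12 widest domains lay mostly over single regulator or neuronal genes. The widest, of 217 kb, covered Tfec, a transcription factor gene of the Mitf family (chr6:16705835-16922420). A domain of 212 kb covered Sox1, a gene of neural progenitors (chr8:12358195-12569926). Others reached Rnf220, a ubiquitin ligase gene (206 kb), Rxrg and Lmx1a, a retinoid receptor gene and a LIM homeobox gene (205 kb), and Rbfox3, the neuronal splicing factor NeuN, with neighbouring domains of 189 and 183 kb. The HoxC domain followed at 182 kb, then domains at Wdfy4 and Lrrc18 (175 kb), Nfasc, an axonal cell adhesion gene (165 kb), Nkx1-1 (162 kb) and Pax5, the B cell regulator (159 kb). One of the 12, of 166 kb on chromosome 11, held no coding gene and its nearest was Lhx1, 37.6 kb away.

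The 10 domains with the highest fold were 31.2 to 182 kb wide, and 6 of them covered a whole homeobox gene. The highest fold, 5.23, belonged to a 37.5 kb domain over Mnx1, a motor neuron and pancreas regulator (chr5:29465509-29503021). Next came 4.78 over Cdx2 and Urad, with Cdx2 an intestinal regulator, and 4.63 over Hoxa7 to Hoxa13 and Evx1. Domains over Hoxb13 (4.48), Nr2e1, a neural stem cell receptor gene (4.37), HoxC (4.26) and Six3, a forebrain and eye regulator (4.23), were also among them. A domain over Gm10499 and Gm8909 in the major histocompatibility region had 4.55. One without a coding gene, 28.7 kb from Uncx, had 4.28, and one 0.522 kb from Cbx8, which encodes a Polycomb subunit, had 4.23. Of the 100 domains with the highest fold, 61 touched a gene of the transcription factor families described below, against 107 of all 1171. Of the 100 widest, 20 did. The fold and width values are those of the list that chose the domains, and no test was made.

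**Figure D1:**
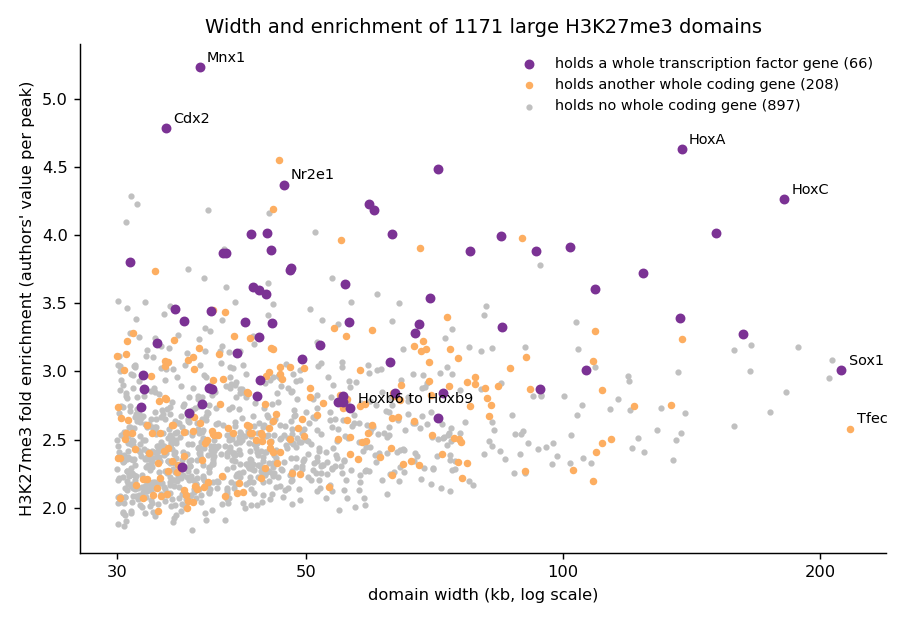
Each point is 1 of the 1171 domains, with its width in kb on a log axis and the authors' H3K27me3 fold enrichment on the vertical axis. The 66 domains that hold a whole transcription factor gene (purple) have a median fold of 3.37, against 2.61 in the 208 that hold another whole coding gene (orange). The 897 in grey hold no whole coding gene.

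Domains seldom stood alone. The gap to the next H3K27me3 peak had a median of 1407.5 bp and was never under 861 bp, and 85.6% of domain sides had a gap of 5 kb or less. Of the 1866 distinct gaps of 5 kb or less beside domains, 27 (1.45%) held an H3K4me3 peak and 43 (2.30%) an H3K27ac peak. Joined across such gaps, the domains fell into 807 blocks, and 594 of them lay in the 230 blocks with at least 2 domains. The widest block, of 738 kb with 9 domains, ran over Cacna1e, a neuronal calcium channel gene, and Zfp648. Blocks of 534 kb at Rbfox3, 528 kb at Barhl2 with 7 domains and 519 kb at Six3 and Six2 with 6 domains followed. The 30 kb threshold thus counts pieces as the peak caller left them, and the same stretch can hold several domains.

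The first question was which genes the domains covered. Whole genes lay in a minority of domains, and these genes were short. There were 379 autosomal protein-coding genes wholly inside a domain, 1.83% of 20665. At least 50% of the gene lay inside domains for 603 genes (2.92%), and 905 genes (4.38%) had at least 1 bp inside. Of the 16457 genes with a reference start, 537 (3.26%) started in a domain. The median length was 5.70 kb for the 379 covered genes and 17.9 kb for the other coding genes. A gene wholly inside a domain cannot be longer than that domain, so the rule itself favours short genes. By domain, 274 (23.4%) held at least 1 whole coding gene, 208 of these exactly 1, and 274 lay inside a single gene, with 5 counted both ways. Another 298 domains (25.4%) held only parts of coding genes.

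The domains with the most whole genes were the HoxC domain with 9 and the HoxA domain with 6. A 44.3 kb domain inside Tspear held 6 predicted genes. A domain of 138 kb on chromosome 1 covered 5 genes, among them Ihh, the Indian hedgehog ligand, and Fev, the regulator of serotonin neurons. A domain of 75.3 kb covered 5 kallikrein genes, Klk1 and its relatives, which encode secreted proteases. Gene-holding domains were therefore of different kinds, from regulator clusters to tandem arrays of secreted proteins.

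Some long genes held many domains in their bodies. Cacna1e, of 494 kb, held 6 domains and had 70.2% of its length inside domains. Dscaml1, a neuronal cell adhesion gene, and Rims2, a synaptic vesicle release gene, held 5 each, covering 76.7% and 46.2% of the gene. The glutamate receptor gene Grik4 and the collagen gene Col22a1 held 4 each. These intragenic stretches had a median fold of 2.36, near the 2.39 of the domains without a coding gene and below the 3.37 of domains with a whole transcription factor gene.

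Another 330 domains (28.2%) touched no coding gene, and 156 of these touched no annotated gene of any kind. Their median distance to the nearest coding gene was 38.9 kb, and 78 lay over 100 kb away, up to 721 kb. After the domain near Lhx1, the widest was one of 158 kb on chromosome 15, 160 kb from Fbxl7. Noncoding genes were covered as well, with 383 of 12408 lncRNA genes (3.09%) and 180 of 9496 pseudogenes (1.90%) wholly inside. The share of coding genes wholly inside was 1.83%.

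Developmental transcription factor genes were covered more often than other genes. Of 421 genes in 17 families of developmental transcription factors, 86 (20.4%) lay wholly inside a domain, against 293 of 20244 other coding genes (1.45%). Some part of a domain reached 121 of the 421 (28.7%), against 784 (3.87%) of the others. Gene length differed, and the contrast was present at both lengths. Among genes of 10 kb or less, 68 of 219 transcription factor genes (31.1%) and 183 of 7124 other genes (2.57%) were wholly covered. Among longer genes the counts were 18 of 202 (8.91%) and 110 of 13120 (0.838%). The family share was above that of all coding genes on each of the 19 autosomes. On chromosomes 3, 12 and 18 it rested on 1 gene each, of 12, 21 and 11. On chromosome 18 that gene was the only covered coding gene. The families were chosen with results of these data known, and no test was made over them.

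**Figure D2:**
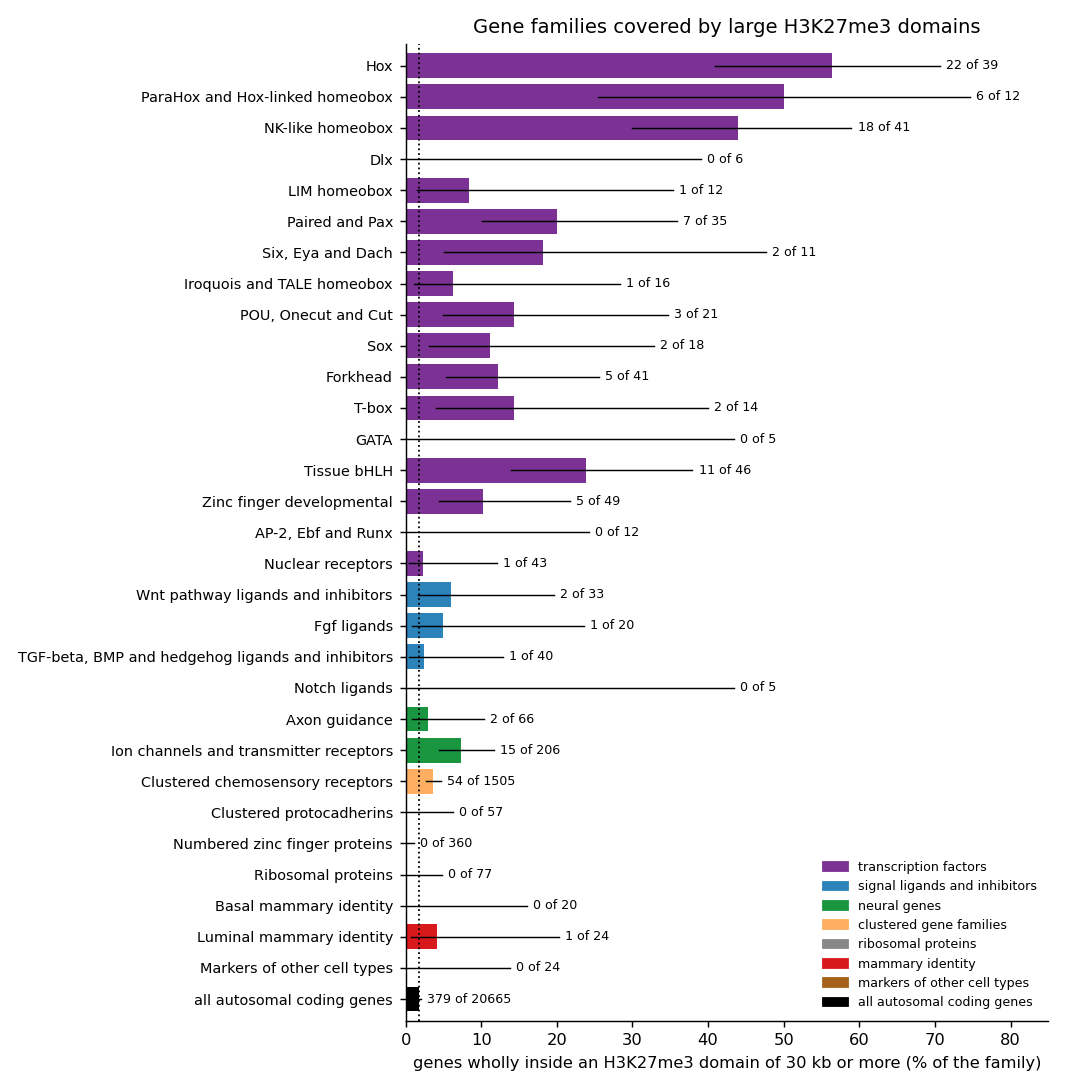
Bars give the percentage of each family's genes that lie wholly inside a domain of 30 kb or more, with Wilson 95% intervals as lines and the counts beside them. The dotted line is the level of all autosomal coding genes, 379 of 20665, and Hox, ParaHox and NK-like homeobox genes stand highest, at 22 of 39, 6 of 12 and 18 of 41.

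Homeobox families held most of the covered regulators. Hox genes, which pattern the body axis, had 22 of 39 wholly inside, with all 9 HoxC genes in 1 domain of 182 kb and Hoxa7 to Hoxa13 in one of 138 kb. The HoxB cluster was split between Hoxb13 in a domain of 71.2 kb and Hoxb6 to Hoxb9 in one of 56.3 kb, while Hoxd1, Hoxd3 and Hoxd4 shared one of 84.7 kb. Of the 12 ParaHox and Hox-linked genes, 6 were covered, namely Evx1, Gbx2, Gsx1, Mnx1, Cdx2 and Gsx2. NK-like genes, regulators of brain, heart and gut, had 18 of 41, led by Nkx1-1 (domain of 162 kb), Hmx1 (137 kb), En2 (124 kb), Barhl2 (109 kb) and Lbx1 (102 kb). Nkx2-5, the heart regulator, lay in one of 62.9 kb and Nkx2-1, the lung and thyroid regulator, in one of 32.3 kb.

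Other homeobox families were covered less completely. Paired and Pax genes had 7 of 35 wholly inside, among them Pax2 (kidney and optic stalk) in a domain of 151 kb and Uncx in one of 84.5 kb. A further 7 were touched, among them Pax5 with 99.3% and Pax6, the eye regulator, with 81.1% of the gene inside domains. Of 12 LIM homeobox genes only Lhx2 lay wholly inside, yet 5 had at least 50% of their length in domains, with Lmx1a at 84.6%, Lhx5 at 91.9% and Lhx3 at 93.3%. Six2 and Six3 were covered among 11 genes of the sine oculis homeobox, Eya and Dach families, and Irx6 among 16 Iroquois and TALE genes. No Dlx gene was covered or touched (0 of 6), although all 6 had an H3K27me3 peak at a gene end. Any H3K27me3 peak within 1 kb of a gene end was found at 6446 of all coding genes (31.2%), and at 310 of the 421 transcription factor genes (73.6%).

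Lineage regulators of other classes followed. Tissue bHLH genes had 11 of 46 wholly inside, including Hand2, a heart and limb regulator (92.9 kb), Ptf1a of the pancreas (72.4 kb), Olig1 and Olig2 of oligodendrocytes (63.5 and 44.0 kb), Neurod1, Neurod2 and the muscle regulator Myod1 (37.7 kb). Forkhead genes had 5 of 41, namely Foxa2, a regulator of endoderm (93.9 kb), Foxi3, Foxf1, Foxb1 and Foxi2. Zinc finger regulators had 5 of 49 (Zic5, Zic2, Prdm13, Prdm12 and Osr2) and POU and Onecut genes 3 of 21 (Pou4f3, Onecut3 and Pou3f2). Sox genes had 2 of 18, Sox1 and Sox14, and T-box genes 2 of 14, Tbx4 and Tbx19. Nuclear receptors had Nr2e1 alone of 43 (2.33%), near the 1.83% of all coding genes. No gene of AP-2, Ebf and Runx (0 of 12) or GATA (0 of 5) lay wholly inside, and Gata4, a heart and endoderm regulator, had 65.0% of its length in domains.

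Wnt3a (59.8 kb) and Wnt8b (45.7 kb) lay wholly inside among 33 Wnt ligands and inhibitors, and Wnt3, Wnt7a, Wnt9b, Rspo1 and Rspo4 were touched. Ihh was covered among 40 TGF-beta, BMP and hedgehog genes (2.5%), Fgf6 among 20 Fgf genes (5%), and none of 5 Notch ligand genes. Ion channel and transmitter receptor genes had 15 of 206 wholly inside (7.28%) and 49 touched (23.8%). The nicotinic receptor genes Chrnb3 and Chrna6 shared a domain of 77.2 kb, and the potassium channel genes Kcna1, Kcna5 and Kcna6 lay side by side in domains of 70.0, 55.7 and 55.7 kb. Axon guidance genes had 2 of 66 (3.03%), Robo4 and Epha8. Of all coding genes, 1.83% lay wholly inside and 4.38% were touched. The whole-gene counts of the ligand and axon guidance families rest on at most 2 genes each, too few to tell from that 1.83%.

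Gene families that are clustered but not developmental gave a contrast. Olfactory and vomeronasal receptor genes had 54 of 1505 inside domains (3.59%), against 1.83% of all coding genes. The receptor genes are short, with a median of 0.951 kb. Among coding genes of 10 kb or less outside the transcription factor families, 2.57% lay wholly inside. None of the 57 clustered protocadherin genes, the 360 numbered zinc finger genes or the 77 ribosomal protein genes lay wholly inside, and 7 of the zinc finger genes were touched. The protocadherin genes had a median length of 90.3 kb, and the 90th percentile of domain width was 75.3 kb. Few of them could therefore lie wholly inside, but none was touched either. Of genes that mark mammary cells, none of 20 basal genes was covered. Among 24 luminal genes only Lalba, the milk protein alpha-lactalbumin gene, lay wholly inside, in a domain of 45.2 kb, and Prlr, the prolactin receptor gene, had 27.6% of its length in domains. Of 24 markers of other cell types, Rbfox3 alone was touched, with 83.2% of the gene. That is 4.17% of the set, against 4.38% of all coding genes touched. Sets of 20 to 24 genes are too small to tell these counts from the shares of all coding genes.

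The cell line's label was set against defining markers, with H3K4me3 and H3K27ac at gene ends standing in for expression, which was not measured. Both marks lay at 3 of 4 basal markers (Krt5, Krt14 and Krt17, not Trp63) and 5 of 6 luminal ones (all but Elf5). They lay at 0 of 4 blood, 0 of 3 endothelial, 0 of 2 fat and 0 of 3 nerve markers, at 1 of 3 stromal markers (Dcn) and at 1 of 3 muscle markers (Myh1). None of these 28 markers other than Rbfox3 was touched by a domain.

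Covered genes mostly lacked the active marks. H3K4me3 lay within 1 kb of a gene end at 42 of the 379 covered genes (11.1%), against 58.2% of other coding genes and 57.3% of all. H3K27ac lay at 17 of the 379 (4.49%), against 56.1% of the others and 55.2% of all. Neither mark was present at 331 covered genes (87.3%) and at 36.9% of the others. Covered transcription factor genes had H3K4me3 more often than other covered genes, at 20 of 86 (23.3%) against 22 of 293 (7.51%). Hox genes made up 10 of the 20, all in the HoxA, HoxC and Hoxb6 to Hoxb9 domains. Neighbours there can share a peak, as Hoxb7 and Hoxb8 did, so these genes are not independent counts. Of the 20, 8 also had H3K27ac and 12 did not. The 12 were the NK-like genes En1, Lbx1, Hmx3 and Nkx2-3, the bHLH genes Ascl2 and Tcf15, the Hox genes Hoxa7, Hoxa9, Hoxa10 and Hoxc4, and Gsx1 and Osr2. No promoter strand was used here, so a mark at a gene end can lie at the start or at the finish of the gene. At Hoxa9 the counted H3K4me3 peak lay beyond the finish, not at the start whose sequence is printed above.

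The second question was how often H3K4me3 or H3K27ac formed islands, that is, peaks wholly inside a domain. Most domains had none. An H3K4me3 island was present in 164 of 1171 domains (14.0%, Wilson 95% interval 12.1 to 16.1) and an H3K27ac island in 98 (8.37%, 6.92 to 10.1). With islands of −log10 q of 5 or more only, the shares were 9.99% for H3K4me3 and 1.71% for H3K27ac. Both were present in 32 domains, and neither in 941 (80.4%). In H3K27me3 peaks of 10 to 30 kb the shares were 6.90% (6.28 to 7.57) and 3.26% (2.84 to 3.75), but a longer peak has more room. Per Mb, the domains held 3.41 H3K4me3 islands, against 4.79 in peaks of 10 to 30 kb and 6.89 H3K4me3 peaks over the autosomes as a whole. For H3K27ac the values were 2.33 per Mb in domains, 2.21 in peaks of 10 to 30 kb and 25.1 over the autosomes. Peaks of H3K4me3 covered 0.368% of domain sequence and peaks of H3K27ac 0.300%, against 1.32% and 4.92% of the autosomes.

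Gene content went with H3K4me3 islands. One was present in 22 of the 66 domains with a whole transcription factor gene (33.3%, 23.2 to 45.3), in 36 of the 208 with another whole coding gene (17.3%, 12.8 to 23.0) and in 76 of the 298 with parts of genes (25.5%, 20.9 to 30.7). Domains inside 1 gene had 16 of 269 (5.95%, 3.69 to 9.44) and domains without a coding gene 14 of 330 (4.24%, 2.54 to 6.99). H3K27ac islands showed a narrower range. They lay in 13 of the 66 domains with a whole transcription factor gene (19.7%, 11.9 to 30.8), and in 6.25% to 8.79% of the domains in the other 4 classes. Median widths differed between these classes as well, from 50.6 kb with a whole transcription factor gene to 39.2 kb without a coding gene, and their part in the shares was not tested.

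**Figure D3:**
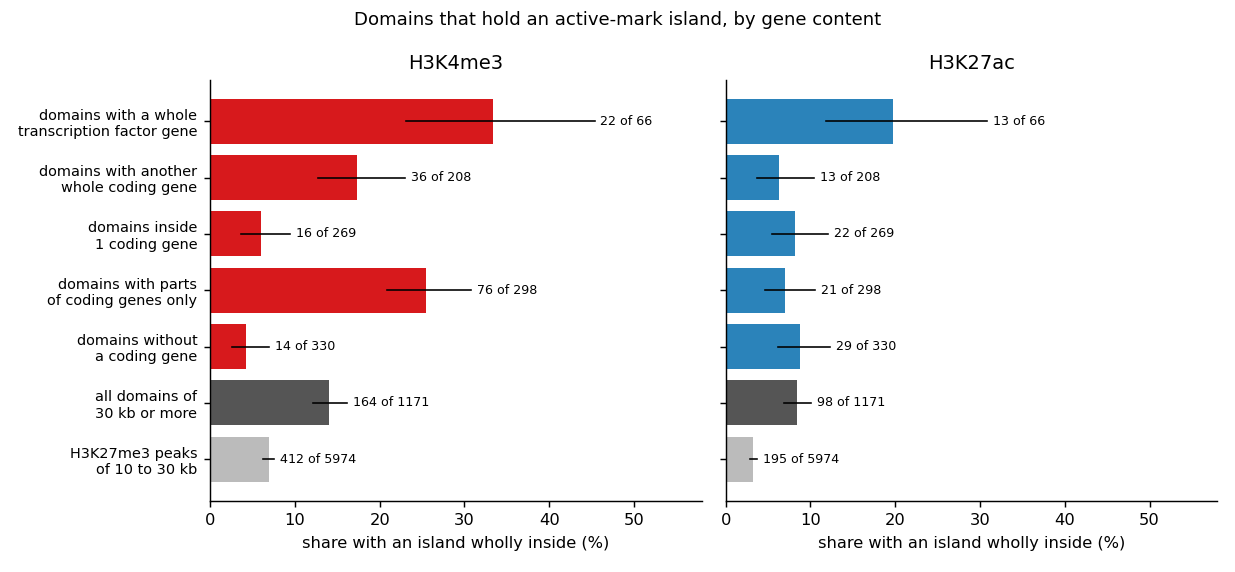
Bars give the percentage of domains that hold an H3K4me3 island (left) or an H3K27ac island (right), with Wilson 95% intervals and counts, for 5 classes of gene content, all 1171 domains and the 5974 peaks of 10 to 30 kb. The H3K4me3 share is highest in domains with a whole transcription factor gene, 22 of 66, and lowest in domains without a coding gene, 14 of 330.

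The islands themselves were narrow and weak next to other peaks of their lists. The 199 H3K4me3 islands were 1.2% of 16562 autosomal H3K4me3 peaks, with a median width of 680 bp and a median fold of 2.95 (95% interval of the median 2.80 to 3.27). The other 16363 peaks had 1754 bp and 13.6 (13.2 to 13.9), and only 4 islands exceeded the list's median fold of 13.3. An H3K27ac peak overlapped 16.1% of the islands and 81.8% of the other peaks. A coding gene end lay within 1 kb of 105 islands (52.8%) and of 63.5% of the other peaks. The 136 H3K27ac islands, 0.226% of 60205 peaks, had a median of 804.5 bp and a fold of 2.06 (2.01 to 2.14), against 1333 bp and 2.39 (2.38 to 2.40). Only 22 of them (16.2%) lay at a gene end, against 19.1% of the other H3K27ac peaks.

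**Figure D4:**
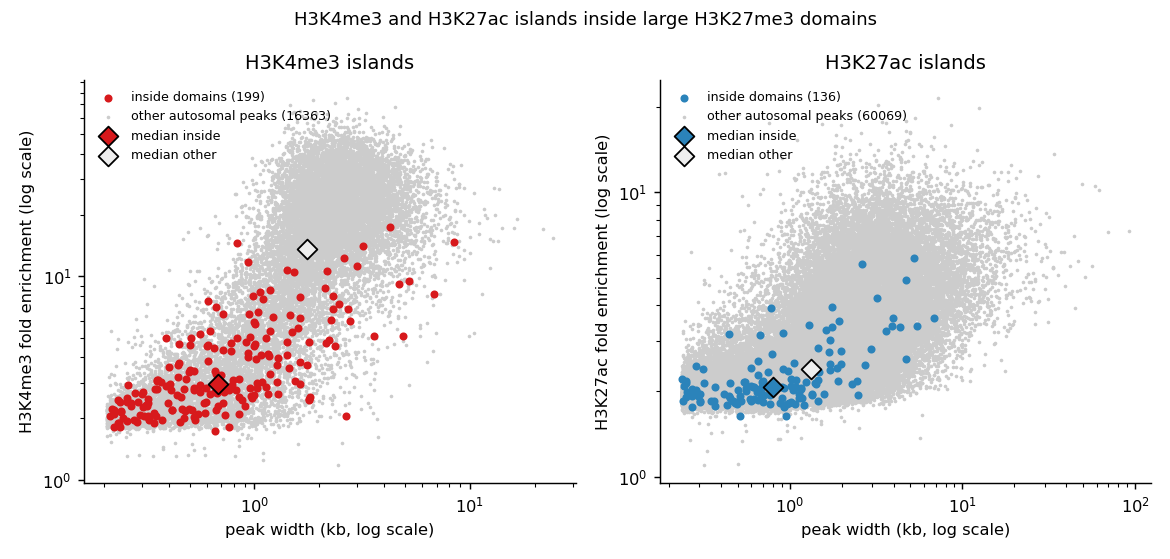
Each point is a peak, with width in kb and the authors' fold enrichment on log axes, for H3K4me3 (left) and H3K27ac (right). Islands inside domains (coloured, 199 and 136) gather at the narrow and weak end of the other peaks (grey), with median folds of 2.95 against 13.6 for H3K4me3 and 2.06 against 2.39 for H3K27ac.

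Of the 10 widest H3K4me3 islands, 3 had a fold above the list's median of 13.3, those at Bahcc1, Hoxb6 and Kcnk1. The widest H3K4me3 island, of 8.47 kb with a fold of 14.8, lay at Bahcc1, which encodes a chromatin protein with a BAH domain (chr11:120229890-120238359). At Foxf1, a forkhead gene of gut and lung mesenchyme, an H3K4me3 island of 6.78 kb with a fold of 8.16 met an H3K27ac island of 3.93 kb with a fold of 3.40. Lmx1b, a LIM homeobox gene of limb and kidney, had 4.87 kb of H3K4me3 with a fold of 5.11, and Emx2, a forebrain and urogenital homeobox gene, 3.60 kb with 5.11. The others among the 10 widest were 3.20 kb within the potassium channel gene Kcnk1, 2.78 kb at Gng11, and 4 islands in the Hoxb6 to Hoxb9 domain. All 10 overlapped H3K27ac. Of the 10 widest H3K27ac islands, 4 lay in the Hoxb6 to Hoxb9 domain, the widest of 6.85 kb at Hoxb6 and Hoxb7. The others lay at Bahcc1 (5.27 kb), within Hpse2 (4.70 and 3.21 kb), at Spats2l (3.97 kb), at Foxf1 and within Dync1i1 (3.62 kb), a dynein subunit gene.

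The Hox domains differed in their islands. The Hoxb6 to Hoxb9 domain held 6 H3K4me3 and 8 H3K27ac islands in 56.3 kb, the strongest at Hoxb6 with a fold of 17.4, and its own H3K27me3 fold was 2.73. The HoxA domain held 6 H3K4me3 and 3 H3K27ac islands with an H3K27me3 fold of 4.63, and the HoxC domain 5 of each with 4.26. Within HoxC the H3K4me3 islands at gene ends lay at Hoxc4, Hoxc5 and Hoxc6, and none was at the ends of Hoxc10 to Hoxc13. In HoxA they lay at Hoxa3, which the domain touched only in part, and at Hoxa7, Hoxa9 and Hoxa10, and not at Hoxa11, Hoxa13 or Evx1. The domain over Hoxb13 and the domain over Hoxd1, Hoxd3 and Hoxd4 had no H3K4me3 at any of these genes. The domain beside Cbx8 held 3 islands of each mark without touching a coding gene. A domain of 53.6 kb inside Hpse2, a heparanase family gene, held 7 H3K27ac islands up to 4.70 kb wide and no H3K4me3 island.

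**Figure D5:**
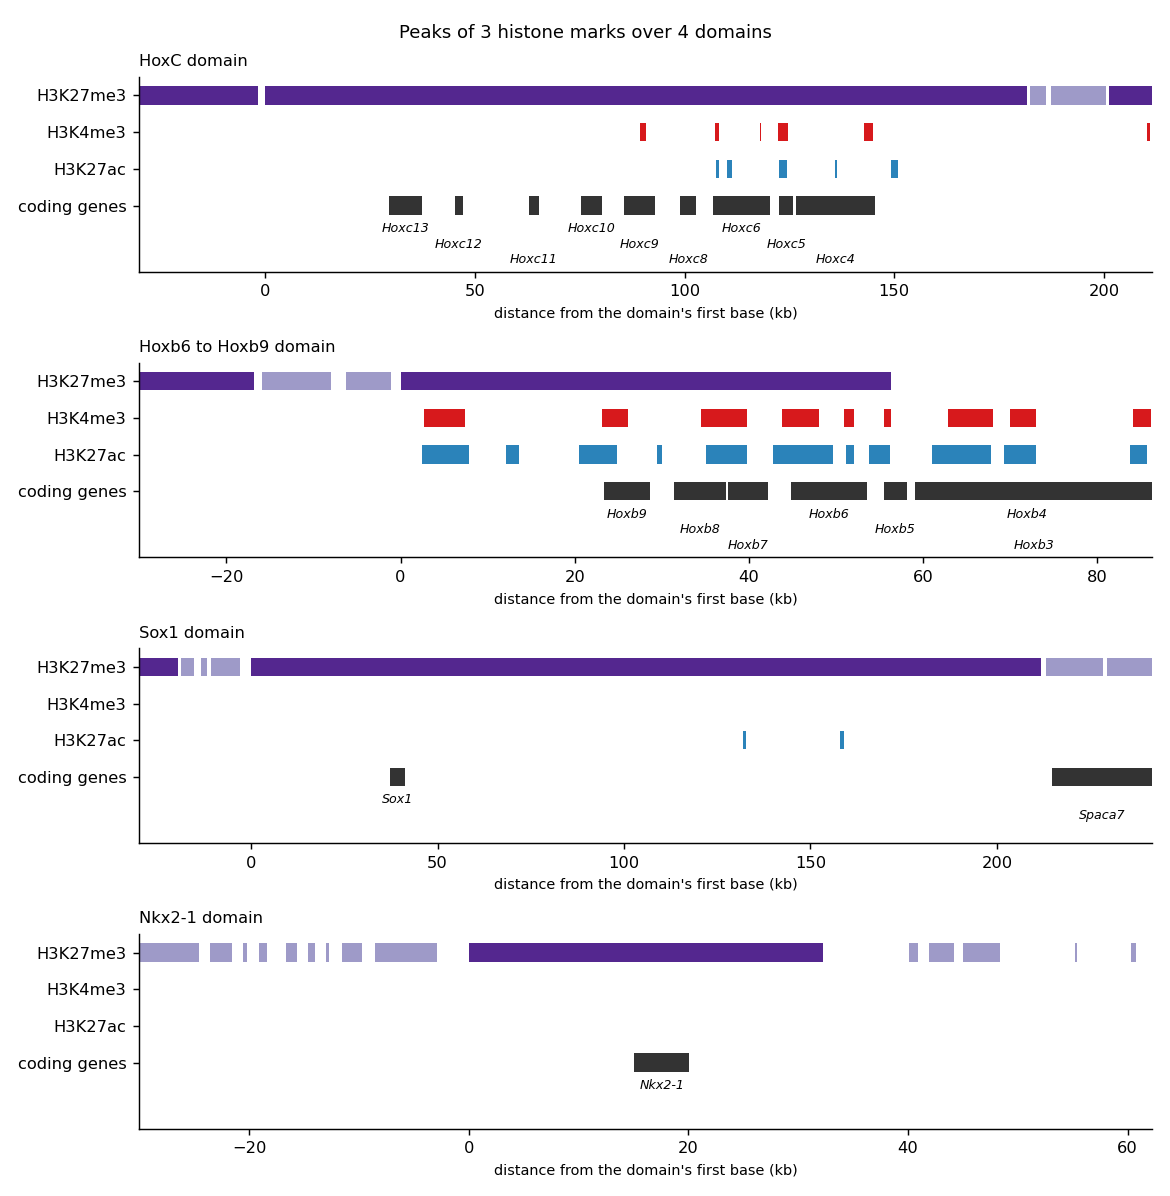
Peaks of H3K27me3 (dark purple for 30 kb or more, light purple for shorter), H3K4me3 (red), H3K27ac (blue) and coding genes (black) are drawn against distance from the first base of the domain in kb. The HoxC domain of 182 kb holds 5 islands of each active mark toward Hoxc4 and the Hoxb6 to Hoxb9 domain of 56.3 kb holds 6 H3K4me3 and 8 H3K27ac islands, while the Sox1 domain of 212 kb holds 2 H3K27ac islands and the Nkx2-1 domain of 32.3 kb holds none.

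HEB sites were rare in the domains. Of 874 autosomal sites, 5 (0.572%) overlapped a domain by at least 1 bp and 4 lay wholly inside. The domains cover 2.43% of the autosomal span. The sites inside lay in a domain over the complement genes C1qa, C1qb and C1qc, in one over the histocompatibility gene H2-T3, in one that reaches Opalin and Tll2, and in one 34.4 kb from its nearest coding gene, Plxna1. The site at the edge lay in Tbc1d16. Only the site in the complement domain overlapped an H3K27ac peak and none overlapped H3K4me3.

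The domains were spread unevenly over the chromosomes. Chromosome 19 had 94.5 per 100 Mb of span, chromosome 6 had 92.8 and chromosome 5 had 84.7, against 7.69 on chromosome 12 and 5.71 on chromosome 18. The share of span in H3K27me3 peaks of any width ran the same way, at 24.7%, 21.0% and 19.5% on the first 3 and 8.14% and 7.92% on the last 2. Over the 19 autosomes the Spearman correlation of these measures was 0.95, a description of values from 1 list. The domains are themselves part of those peaks. Peaks of H3K27ac covered 6.24%, 4.98% and 5.94% of span on chromosomes 19, 6 and 5, against 3.32% and 2.96% on chromosomes 12 and 18. For H3K4me3 the values were 1.97%, 1.13% and 1.47%, against 0.941% and 0.972%. The unevenness was thus not particular to H3K27me3, and its cause was not tested. On chromosome 12, 1 of 21 transcription factor genes was covered, Nkx2-1, and on chromosome 15, 10 of 20, of which 9 are the HoxC genes.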

How the data were processed

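Positions and per-peak values came from 4 deposited peak lists, 1 per antibody, in mm10 and with SAMtools among the tools, per the submitters' processing notes. The sources used here do not give the aligner, the peak caller or how the 4 replicates of each histone mark were combined. In the 3 histone lists, the fold enrichment is the authors' ratio of ChIP over control, and the −log10 q-value is the authors' own. The deposited score was not used. The HEB list, per the file itself, holds positions of consensus sites only.

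Domains, islands and genes were intersected in Python 3.11.15 with pandas 2.3.3 and NumPy 2.4.6, and the code was tested on simulated intervals. Genes, starts and microRNAs came from RefSeq tables of GRCm38.p6, the assembly on which mm10 is based. A covered gene lies wholly inside 1 domain, and a gene end is a window of 1 kb around either end. Shares have Wilson 95% intervals and medians have order-statistic intervals, both for counting error only, and read depth is unknown. CpG content was not compared between gene groups, because reference starts exist for 76.8% of covered genes and 69.8% of covered transcription factor genes.

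Members, gene families and tests were chosen with earlier results of these data known. Named were the 12 widest domains, the 10 with the highest fold, the 5 with the most whole genes, the 5 with the most H3K4me3 islands and those at the length threshold. Also named were up to 8 covered members per family and up to 4 with H3K4me3, covered mammary and cell type markers, the 10 widest islands per mark, HEB sites in domains, and promoters with the highest and lowest CpG counts. Genes in other statements were chosen after their values were seen. Alternatives changed the length threshold, the q minimum, joining of peaks, the gene rule, the island rule and the chromosomes.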

Additional observations from a re-analysis of the deposited data

How the results depend on the processing

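There were 53 recomputed values over 7 results and 12 settings. Of these, 29 stayed within their limits (1.5 times for counts, the counting interval otherwise) and 24 moved. A direction was defined only for the transcription factor share and the differences in median fold, and 0 of those values changed it. Transcription factor families were covered more often than all coding genes, and islands had lower median folds than other peaks, under every setting run for them. The domain count, 1171, was 2369 at 20 kb, 369 at 50 kb and 3844 with peaks joined across 5 kb. Covered coding genes, 379, were 174 at 50 kb and 1817 after that joining, 603 with 50% of the gene inside, 905 with 1 bp inside and 714 by gene start (either end where no start is known). The covered share of transcription factor families, 20.4%, was 27.6% at 20 kb, 12.4% at 50 kb, 40.1% after joining across 5 kb, 25.7% with 50% of the gene, 28.7% with 1 bp and 27.6% by gene start. Domains with an H3K4me3 island, 14.0%, were 11.2% at 20 kb, 17.3% at 50 kb, 19.3% after joining across 5 kb and 9.99% with islands of −log10 q of 5 or more. For H3K27ac islands, 8.37%, these values were 5.74%, 10.6%, 19.2% and 1.71%, and 27 of the 136 H3K27ac islands reached that q. The difference in median H3K4me3 fold, islands minus other peaks, was -10.63, and -10.85 after joining across 5 kb and -12.32 with islands and peaks of −log10 q of 5 or more. Longer blocks hold more genes and islands by construction, and the cause of the other changes was not tested. Leaving out chromosomes 5 and 6, an alternative chosen after seeing the data, gave 909 domains and 18.5% of transcription factor genes, and kept all 7 results within their limits. CpG alternatives were not run for want of reference starts. No paired analysis was possible because each list combines its replicates and no value comes from a test. Replicates could not be left out, read depth is unknown, and domain edges rest on short gaps between peaks (median 1407.5 bp).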

Other observations

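Other genes wholly inside domains were named after their values were seen, with no list or test behind the choice. Genes of blood cells among them included the T cell coreceptor gene Cd4, the recombinase gene Rag1, the myeloid regulator Irf8 and the lymphoid regulator Ikzf3. Genes of the liver and plasma included Alb, Plg, F7 and F10, and genes of secreted peptides included Sst and Calca. Krt1 and Krt77, keratin genes of the cornifying epidermis, lay together in a domain of 45.3 kb, and Glycam1, which is expressed in the lactating mammary gland, lay in one of 44.8 kb. Of these 13 genes, H3K4me3 lay within 1 kb of a gene end at Calca and at Cd4, where the island overlapped the neighbouring Gpr162, and an H3K4me3 island lay within Irf8.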
